A study of Homo sapiens with 29 samples.

Results

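Serum response factor (SRF) and genes of the actin cytoskeleton that it is known to regulate were followed through RNA libraries of sorted RPE1 cells. The set held 10 genes, chosen by name: SRF itself, the smooth muscle actin gene ACTA2, the actin-binding genes TAGLN, CNN1 and CNN2, the myosin light chain gene MYL9, the tropomyosin genes TPM1 and TPM2, the focal adhesion gene VCL and the SRF cofactor gene FHL2. Of these, 9 were matched by Ensembl identifier in each of the 3 deposited tables, which hold 10577 (Mps1i), 10594 (MN) and 9461 (rupture) genes. CNN1 was matched in none of them, so no level is given for it. Every gene in a table reached at least 700 estimated counts in at least 2 libraries.

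RPE1 is an hTERT-immortalised line from retinal pigment epithelium, and all cells here carried NLS-3xDendra2, a nuclear protein that converts from green to red under a UV pulse, and H2B-emiRFP703, which marks chromatin. Individual cells were chosen by image analysis, given a pulse of 200 or 800 ms and sorted into bins by the amount of converted Dendra2. In the study's general sorting protocol, cells were also moved to medium with 10 µM RO-3306, a Cdk1 inhibitor, 1 h before imaging. The first table compared cells treated for 24 h with 100 nM BAY1217389, an inhibitor of the spindle checkpoint kinase Mps1 (Mps1i), with cells in the solvent DMSO, in 2 experiments with both pulse lengths (4 and 4 libraries). The second compared micronucleated (MN+) with non-micronucleated (MN-) cells, both treated with Mps1i for 24 h, in 2 experiments with the pulse assignment exchanged between wells (4 and 4 libraries). The third compared micronucleated cells with ruptured micronuclei (rupture+, always 200 ms) with those whose micronuclei were all intact (rupture-, always 800 ms), both in 100 nM Mps1i for 24 h, in 3 experiments (3 and 3 libraries), so that rupture and pulse length cannot be told apart there. Cells of the third table were first synchronised, per the sample labels with 10 µM RO-3306 for 20 h, whereas the study's methods name a Cdk4/6 inhibitor for this step. The MN and rupture states were calls of the study's image classifier, which by its own figures placed some cells in the wrong class. More of the MN- than of the MN+ calls were wrong. The study also estimates that some intact micronuclei ruptured during the sorting experiment. How far this mixing changed the differences below was not tested. Every library came from a pool of many sorted cells of 1 line. In such bulk RNA fewer cells of a kind and less RNA per cell cannot be told apart.

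SRF binds the CArG box, a short DNA element with an A/T-rich centre, and works with 2 kinds of partner. Myocardin-related transcription factors (MRTFs) are held by monomeric actin and enter the nucleus when actin polymerises, which ties the contractile and adhesion genes of SRF to the state of the cytoskeleton. Ternary complex factors respond to MAP kinase signalling and drive immediate early genes. Many contractile targets are best known as smooth muscle genes, but cultured epithelial cells with stress fibres also express them.

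Promoter sequence is shown for the measured genes whose RefSeq window (GRCh38.p14, 250 bases before to 50 bases after the annotated start) held a CArG box, and for ACTA2, the member with the largest response to Mps1i. The element was searched by its consensus, which is its own reverse complement, so one search covers both strands. It was present in 454 of all 35116 windows (1.29%). One window of SRF held 2 CArG boxes, at chr6:43171239-43171248 and chr6:43171259-43171268 on the plus strand, the second of them ending at the base before the start. CNN2 held 1 at chr19:1026519-1026528 on the plus strand. FHL2 held 1 in 3 of its 4 windows. The window at the 5′ end of the gene in GENCODE is printed, with the box at chr2:105438605-105438614 on the minus strand. An overlapping window held this same box. The other window with a box, chr2:105399002-105399301, is that of the MANE Select start. It held a different box, with its first base at -59 from the start. It is not printed because too many of the bases before its start lie in annotated exons. The start of the printed window lay 39462 bases from that of the MANE Select transcript. ACTA2 had no exact match, but its proximal window held 2 elements with 1 mismatch each, at chr10:88952885-88952894 and chr10:88952835-88952844 on the minus strand. Counting 1 mismatch as a match, 18.9% of all windows held the element. The 130 bases before each start are written 5′ to 3′ with these elements in capitals.
SRF: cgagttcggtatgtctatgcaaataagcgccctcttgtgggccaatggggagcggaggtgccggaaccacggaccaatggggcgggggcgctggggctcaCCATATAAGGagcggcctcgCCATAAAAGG
CNN2: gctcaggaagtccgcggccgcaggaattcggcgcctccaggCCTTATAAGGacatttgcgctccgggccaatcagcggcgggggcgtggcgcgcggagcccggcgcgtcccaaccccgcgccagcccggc
FHL2: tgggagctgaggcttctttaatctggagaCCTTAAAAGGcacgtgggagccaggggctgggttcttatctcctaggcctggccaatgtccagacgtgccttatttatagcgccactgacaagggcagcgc
ACTA2: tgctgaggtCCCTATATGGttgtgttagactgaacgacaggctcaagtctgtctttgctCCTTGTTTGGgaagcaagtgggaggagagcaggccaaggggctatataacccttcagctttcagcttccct
A match in these windows describes the letters and not a bound site. The windows of TPM1, TPM2, VCL and CNN1 held neither an exact match nor one with 1 mismatch. Windows were read for 8 of the 10 members, all but TAGLN and MYL9.

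The shallowest library held 47919780 counts and the deepest 145242185, and levels are given as CPM, the counts per 1000000 of a library total scaled by TMM within a table. Of the retinal pigment epithelium markers, 1 of 8 (MITF) was matched in the tables, and of the simple epithelium markers 2 of 5, KRT8 and KRT18, with a summed level of 1348 to 1995 CPM. Of the mesenchymal markers, 5 of 7 were matched in the Mps1i and MN tables and 4 of 7 in the rupture table, VIM foremost at 2906 to 4291 CPM. Of 7 smooth muscle markers only SMTN was found (204 to 446 CPM), and none of 6 skeletal or cardiac muscle markers and none of 4 endothelial markers was matched. Of the leukocyte markers 1 of 4 was matched, the lysosomal gene CD68 at 56.8 to 86.5 CPM. VIM was lower (log2 fold change -0.10, edgeR adjusted p = 0.0480) and COL1A1 higher (0.47, adjusted p = 0.0309) in Mps1i than in DMSO. Neither call held in every fit that left out 1 library, and their part in the results below was not tested.

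**Figure D1:**
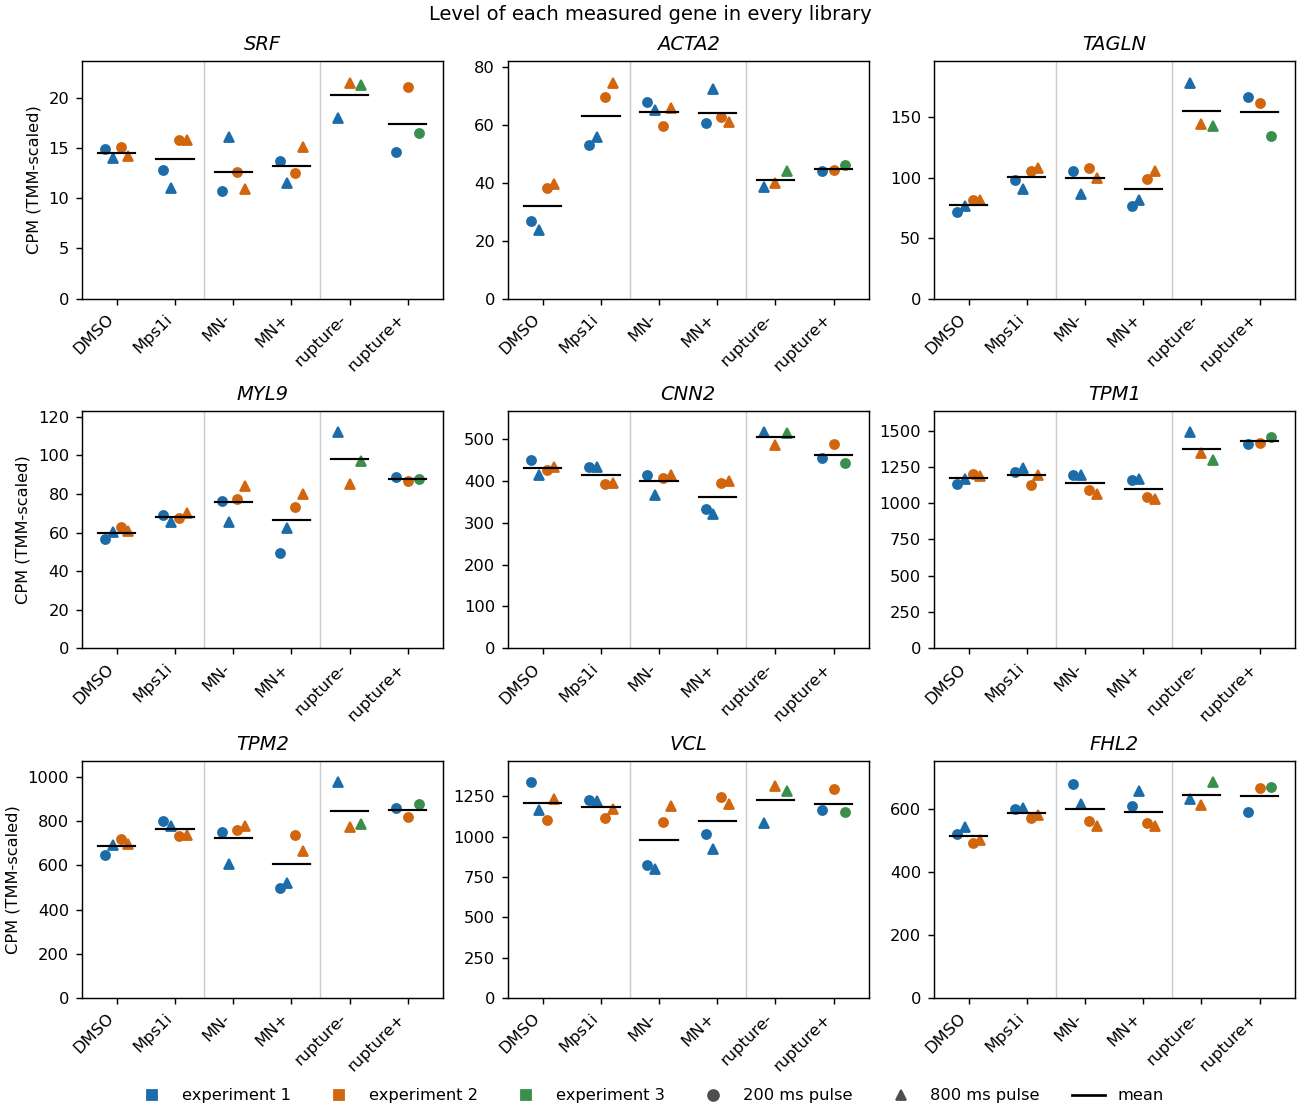
Level of each measured gene (CPM, vertical axis from 0) in every library of the 6 conditions, coloured by experiment and shaped by pulse length, with the mean as a bar. Vertical lines divide the 3 tables, which were scaled separately, and ACTA2 shows the clearest step, from 23.7 to 39.4 CPM in DMSO to 53.0 to 74.5 CPM in Mps1i.

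Per kilobase of the reference transcript the members spanned a wide range of levels. TPM1 was the most abundant in each condition, at a mean of 903 to 1171 CPM per kb, followed by TPM2 at 509 to 715 and FHL2 at 325 to 406. In every condition the lowest library of TPM1 lay above the highest of TPM2, and the lowest of TPM2 above the highest of FHL2. VCL and CNN2 came next and their libraries overlapped in 5 of 6 conditions. ACTA2, MYL9 and TAGLN lay between 20.5 and 47.8 CPM per kb, with an order that changed between conditions. SRF, the transcription factor, was lowest throughout at 2.97 to 4.78 CPM per kb. The reference transcripts of TAGLN (3786 bases, 603 of them coding) and MYL9 (2786 bases, 516 coding) have long untranslated ends. Per kilobase of coding sequence both genes lay above ACTA2 in all 6 conditions. The means were 129 to 258 CPM per kb for TAGLN, 116 to 190 for MYL9 and 28.3 to 57.1 for ACTA2. Per kilobase of transcript mean ACTA2 lay above both in the Mps1i and MN tables, below both in rupture- and between them in rupture+. Their place relative to ACTA2 thus depended on the transcript ends assumed, except for both genes in rupture- and TAGLN in rupture+.

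Of the 9 measured members, 4 rose in Mps1i against DMSO and none fell: ACTA2, TAGLN, FHL2 and MYL9. Over all genes 6.32% passed the test in the upward direction (edgeR's quasi-likelihood test, Benjamini-Hochberg adjusted p under 0.05) and 5.76% in the downward direction. In 5 of 9 members, the same 4 and TPM2, every Mps1i library lay above every DMSO library, which held for 10.1% of all genes, and the reverse held for no member and for 9.23% of all genes. The median log2 fold change was 0.15 over the members and -0.0038 over all genes. With both pulse lengths of an experiment summed and the experiment as a block, ACTA2, TAGLN and FHL2 passed and MYL9 did not. That fit called 497 of 10577 genes upward and 427 downward.

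ACTA2 (chr10:88935074-88991339, minus strand; GRCh38, GENCODE v44), which encodes an actin isoform of stress fibres and smooth muscle, had the largest response. In DMSO its level was 26.7 and 23.7 CPM in experiment 1 and 38.2 and 39.4 CPM in experiment 2 (200 and 800 ms pulse). In Mps1i it was 53.0 and 55.6 CPM in experiment 1 and 69.5 and 74.5 CPM in experiment 2. The groups did not overlap, and experiment 2 was higher than experiment 1 in both. The mean was 32.0 ± 7.92 CPM in DMSO and 63.2 ± 10.5 CPM in Mps1i (SD, n = 4 libraries each, from 2 experiments). This was a 1.97-fold difference (log2 0.98, SE 0.17, 95% interval 0.61 to 1.34, edgeR adjusted p = 0.00405). ACTA2 passed the threshold in all 20 alternative fits, with adjusted p up to 0.0142. Within the 4 matched pairs the log2 ratio was 0.99, 1.23, 0.87 and 0.92.

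The exons of ACTA2 share 387 of their 5628 bases (6.88%) with exons of FAS, the death receptor gene on the opposite strand, and the library kit does not mark strand. The shared bases lie outside the MANE Select transcript of ACTA2, in exons of its other transcripts. FAS was also higher in Mps1i, at 134 ± 8.44 CPM against 95.4 ± 8.91 CPM in DMSO (log2 fold change 0.49, SE 0.068, edgeR adjusted p = 0.00171). The part of FAS reads in the ACTA2 estimate was not tested. The coding sequences of actin genes are also alike, and ACTB was at 18681 ± 155 CPM in DMSO and 18966 ± 126 CPM in Mps1i (log2 fold change 0.022, edgeR adjusted p = 0.595).

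TAGLN (chr11:117199370-117207464, plus strand) encodes transgelin, a calponin-family protein that binds actin filaments. It was at 71.4, 76.3, 81.5 and 81.4 CPM in DMSO and at 97.9, 90.8, 106 and 108 CPM in Mps1i. The lowest Mps1i library lay above all DMSO libraries, and the mean rose from 77.7 ± 4.80 to 101 ± 7.88 CPM (log2 fold change 0.37, SE 0.063, edgeR adjusted p = 0.00397). TAGLN passed in all 20 alternative fits, with adjusted p up to 0.0190.

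MYL9 (chr20:36541497-36551447, plus strand), a regulatory light chain of myosin II, differed less. Its level was 56.5, 60.4, 62.7 and 60.6 CPM in DMSO and 68.9, 65.7, 67.3 and 70.2 CPM in Mps1i. The groups did not overlap, and the means were 60.1 ± 2.56 and 68.1 ± 1.96 CPM (log2 fold change 0.18, SE 0.045, edgeR adjusted p = 0.0262). This call was lost on leaving out any 1 of 6 libraries: the DMSO libraries of 200 ms experiment 1 (adjusted p = 0.0563), 800 ms experiment 1 (0.0535) and 800 ms experiment 2 (0.0599), and the Mps1i libraries of 200 ms experiment 1 (0.0548), 200 ms experiment 2 (0.0623) and 800 ms experiment 2 (0.0739). It was also lost with both pulse lengths of an experiment summed and the experiment as a block (edgeR adjusted p = 0.0698). Over all alternatives the adjusted p ranged from 4.73e-04 to 0.129.

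FHL2 (chr2:105357712-105438513, minus strand) encodes a LIM-domain protein that is both induced by SRF and able to restrain it. It was at 520, 541, 493 and 500 CPM in DMSO and at 600, 602, 570 and 581 CPM in Mps1i, again without overlap. The mean rose from 513 ± 21.6 to 588 ± 15.3 CPM (log2 fold change 0.20, SE 0.040, edgeR adjusted p = 0.0108). With experiment 2 left out the edgeR adjusted p was 0.0605, and it passed in the other 19 alternative fits.

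Tropomyosins wrap actin filaments, and neither of their genes in the set passed. TPM2 (chr9:35681992-35690056, minus strand) was at 648, 691, 718 and 699 CPM in DMSO and at 801, 780, 732 and 736 CPM in Mps1i. The groups did not overlap, yet the difference missed the threshold (log2 fold change 0.15, SE 0.044, edgeR adjusted p = 0.0546). With the experiment as a block it passed (adjusted p = 0.0258), and that fit called 5 members and 12.7% of all genes upward, with 11.8% downward. With both pulse lengths of an experiment summed and the same block it did not pass (adjusted p = 0.140), and 3 members did. TPM2 rested on experiment 1: the log2 fold change was 0.24 with experiment 2 left out and 0.054 with experiment 1 left out. TPM1 (chr15:63042620-63071915, plus strand) was at 1135 to 1202 CPM in DMSO and 1125 to 1241 CPM in Mps1i, and these ranges overlapped (log2 fold change 0.03, SE 0.039, 95% interval -0.059 to 0.11, edgeR adjusted p = 0.693).

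SRF, VCL and CNN2 had differences below 0 in Mps1i that did not pass the test. SRF (chr6:43171269-43181506, plus strand) was at 14.9, 13.9, 15.1 and 14.2 CPM in DMSO and 12.8, 11.0, 15.8 and 15.7 CPM in Mps1i. The Mps1i libraries of experiment 1 lay below all DMSO libraries and those of experiment 2 above them (log2 fold change -0.07, SE 0.11, edgeR adjusted p = 0.730). VCL (chr10:73995193-74121363, plus strand) encodes vinculin, which links integrin adhesions to actin, and was at 1102 to 1337 CPM in DMSO and 1118 to 1229 CPM in Mps1i (log2 fold change -0.03, 95% interval -0.16 to 0.097, adjusted p = 0.773). CNN2 (chr19:1026586-1039068, plus strand), a calponin of non-muscle cells, was at 415 to 449 and 392 to 433 CPM (log2 fold change -0.06, 95% interval -0.16 to 0.040, adjusted p = 0.417). CNN2 has processed pseudogene copies that may share reads with it, so its level is less certain. With experiment 1 left out the difference of CNN2 passed the threshold downward (log2 fold change -0.13, edgeR adjusted p = 0.0279).

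**Figure D2:**
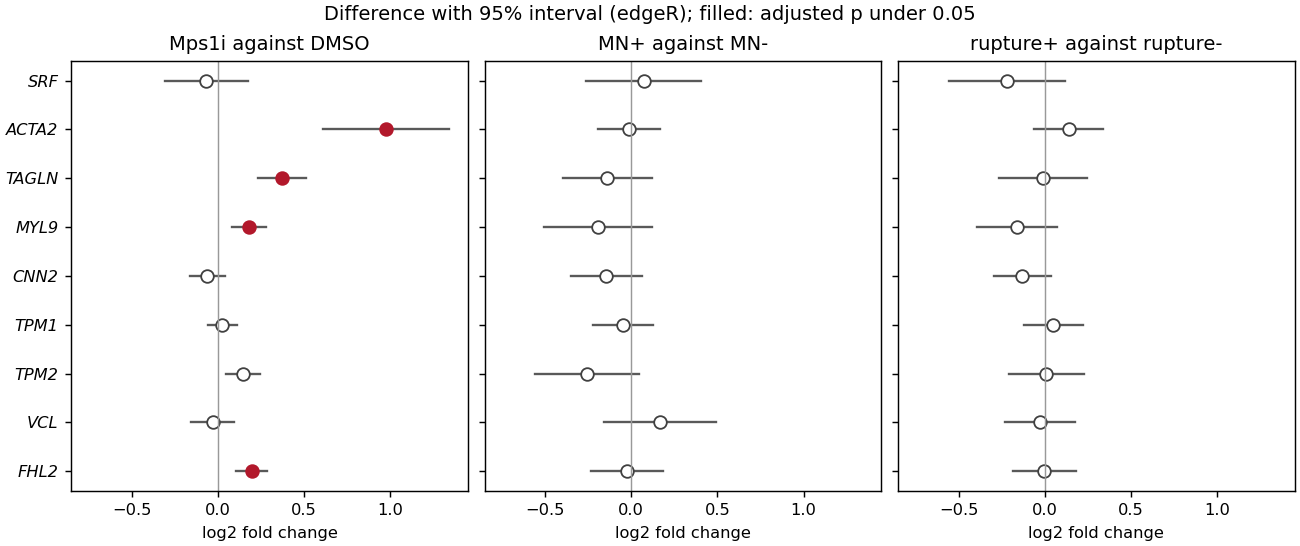
Log2 fold change (horizontal axis) of each measured gene in the 3 comparisons, with the 95% interval of edgeR's quasi-likelihood fit on 8, 8 and 6 libraries; filled points passed an adjusted p of 0.05. Filled points stand in the Mps1i panel alone, led by ACTA2 at 0.98.

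The effect of Mps1i on the members was compared between the 2 experiments by an interaction term. It passed for none of the 9 members and for 0.359% of all genes. The largest differences (experiment 2 minus experiment 1) were those of SRF, at 0.38 (SE 0.13, edgeR adjusted p = 0.280), ACTA2, at -0.21 (SE 0.096, adjusted p = 0.403), and TPM2, at -0.19 (SE 0.058, adjusted p = 0.220). SRF was lower in Mps1i in both pairs of experiment 1 (log2 ratio -0.21 and -0.34) and higher in both of experiment 2 (0.07 and 0.15). ACTA2 was higher in all 4 pairs.

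No member passed the test between MN+ and MN- cells, nor did any of the 10594 genes in either direction (0% upward and 0% downward by edgeR). Unadjusted, 789 genes had p under 0.05, none of them a member. With the experiment as a block 1 gene passed (0.00944%), not a member, and 4 members had an unadjusted p under 0.05, as did 2044 of all 10594 genes. DESeq2 called 5 genes without and 161 with the block. In no member did the MN+ and MN- libraries separate, against 2.43% of all genes with MN+ above MN- throughout and 3.14% with MN+ below. The median log2 fold change was -0.05 over the members and -4.76e-04 over all genes.

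In MN+ cells TPM2 was at 500 and 521 CPM in experiment 1 and 737 and 665 CPM in experiment 2 (200 and 800 ms pulse). In MN- cells it was at 751 and 605 CPM in experiment 1 and 759 and 780 CPM in experiment 2. MN+ was lower in all 4 wells, and within each experiment both MN+ libraries lay below both MN- libraries. Over both experiments the 2 states overlapped, since the MN- library of 800 ms experiment 1 lay below both MN+ libraries of experiment 2. The log2 fold change was -0.26 (SE 0.14, 95% interval -0.56 to 0.044, edgeR adjusted p = 0.641, and 0.206 with the block). The log2 fold change was -0.12 with experiment 1 left out and -0.39 with experiment 2 left out. It passed in 1 of 21 alternative fits, with both pulse lengths of an experiment summed and the experiment as a block (adjusted p = 0.0204). The same fit called 822 genes in all.

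The differences of MYL9, TAGLN and CNN2 were below 0 in MN+ against MN-, with overlapping libraries. Compared within wells, TAGLN, CNN2 and TPM1 were lower in MN+ in all 4, and MYL9 in all but 1. MYL9 was at 49.4, 62.6, 73.2 and 80.1 CPM in MN+ and 76.2, 65.3, 77.5 and 84.4 CPM in MN- (log2 fold change -0.19, SE 0.14, edgeR adjusted p = 0.687). TAGLN was at 76.6, 81.7, 99.2 and 106 CPM in MN+ and 105, 86.2, 108 and 99.9 CPM in MN- (log2 fold change -0.14, adjusted p = 0.726). CNN2 was at 320 to 401 CPM in MN+ and 367 to 415 CPM in MN- (log2 fold change -0.14, adjusted p = 0.657). Without the MN+ library of 200 ms experiment 1 the log2 fold change was -0.08 for MYL9 and -0.06 for TAGLN, and with experiment 1 left out it was -0.07 for MYL9, -0.01 for TAGLN and -0.03 for CNN2. MYL9 and CNN2 of MN+ cells were lowest in experiment 1, whereas TPM1 was lowest in experiment 2, at 1040 and 1028 CPM against 1163 and 1165 CPM in experiment 1. Against MN-, the log2 fold change of TPM1 was -0.05 (95% interval -0.22 to 0.12, edgeR adjusted p = 0.864).

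ACTA2 was at 60.4, 72.1, 62.5 and 60.8 CPM in MN+ and 67.8, 64.9, 59.5 and 65.9 CPM in MN-. The ranges overlapped over most of their width (log2 fold change -0.01, SE 0.082, 95% interval -0.19 to 0.17, edgeR adjusted p = 0.970). FAS was at 129 ± 19.4 CPM in MN+ and 113 ± 8.65 CPM in MN- (log2 fold change 0.20, adjusted p = 0.641).

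FHL2, VCL and SRF completed the set. FHL2 was at 547 to 656 CPM in MN+ and 546 to 680 CPM in MN- (log2 fold change -0.02, 95% interval -0.23 to 0.19, edgeR adjusted p = 0.957). VCL was at 1017, 923, 1244 and 1202 CPM in MN+ and 825, 799, 1091 and 1193 CPM in MN-, higher in MN+ in all 4 wells but overlapping across experiments (log2 fold change 0.17, SE 0.15, adjusted p = 0.735). SRF was at 11.5 to 15.0 CPM in MN+ and 10.7 to 16.1 CPM in MN- (log2 fold change 0.07, SE 0.15, adjusted p = 0.899). All 4 libraries of experiment 1 lay below all 4 of experiment 2 for VCL, whatever the state. The interaction of state and experiment passed for no member and for 0.00944% of all genes.

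**Figure D3:**
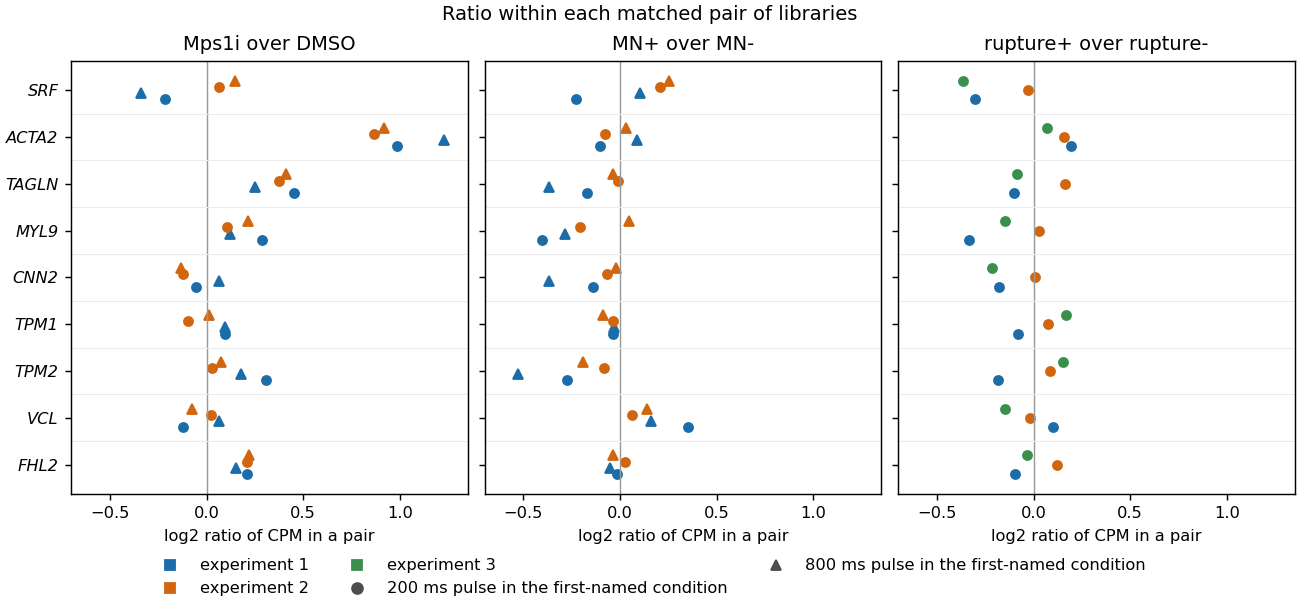
Log2 ratio of CPM (horizontal axis) within each matched pair: libraries of one pulse length and experiment for Mps1i over DMSO, of one well for MN+ over MN-, and of one experiment for rupture+ over rupture-. Colours give the experiment and shapes the pulse length of the first-named condition. ACTA2, TAGLN, MYL9, TPM2 and FHL2 lie right of 0 in all 4 Mps1i pairs. In all 4 MN pairs TAGLN, CNN2, TPM1 and TPM2 lie left of 0, and VCL right of 0.

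No member passed between rupture+ and rupture- cells, where edgeR called 3 of 9461 genes (0.0317%) upward and none (0%) downward, and 0.159% in either direction with the experiment as a block. Unadjusted, 847 genes had p under 0.05, none of them a member, and DESeq2 called 47 genes, again without a member. ACTA2 was the only member whose libraries did not overlap, at 44.1, 44.3 and 46.1 CPM in rupture+ and 38.5, 39.8 and 43.9 CPM in rupture- (experiments 1 to 3). Such an arrangement was found in 9.58% of all genes in this direction and in 6.70% in the other. The gap between the highest rupture- and the lowest rupture+ library was small, and the log2 fold change was 0.14 (SE 0.089, 95% interval -0.060 to 0.34, edgeR adjusted p = 0.591).

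SRF was at 14.6, 21.1 and 16.5 CPM in rupture+ and 17.9, 21.5 and 21.3 CPM in rupture-. It was lower in rupture+ in all 3 pairs and the ranges overlapped (log2 fold change -0.22, SE 0.15, 95% interval -0.55 to 0.12, edgeR adjusted p = 0.609). The size of this difference turned on single libraries, with a log2 fold change of -0.10 without that of rupture+ experiment 1 and -0.38 without that of rupture+ experiment 2. MYL9 was at 88.7, 86.8 and 87.7 CPM in rupture+ and at 112, 85.0 and 97.3 CPM in rupture- (log2 fold change -0.16, SE 0.10, adjusted p = 0.593; -0.06 without the rupture- library of experiment 1). The 3 rupture+ libraries of MYL9 lay within 2 CPM of each other and inside the wide range of rupture-. CNN2 was at 456, 487 and 442 CPM in rupture+ and 516, 485 and 514 CPM in rupture- (log2 fold change -0.13, SE 0.075, adjusted p = 0.572).

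The remaining members had log2 fold changes between -0.03 and 0.05 between rupture+ and rupture-. TPM1 was at 1404 to 1457 CPM in rupture+ and 1298 to 1487 CPM in rupture-, and TPM2 at 817 to 876 and 772 to 976 CPM. TAGLN was at 135 to 167 CPM in rupture+ and 143 to 179 CPM in rupture- (95% interval of the log2 fold change -0.27 to 0.25). VCL was at 1156 to 1295 and 1087 to 1311 CPM, and FHL2 at 589 to 669 and 612 to 684 CPM. For each of these the ranges overlapped, and the edgeR adjusted p lay between 0.809 and 0.995.

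The pulse length itself was tested within the first and second tables, with the condition and the experiment as terms. It passed for none of the 9 members in either, for 0.00945% of all genes in the Mps1i table and for 0% in the MN table, where 105 genes had an unadjusted p under 0.05. For the members the log2 difference of 800 against 200 ms lay between -0.10 and 0.03 in the Mps1i table and between -0.10 and 0.11 in the MN table. SRF was at one end of both ranges (-0.10, SE 0.087, and 0.11, SE 0.15).

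Set side by side, the 3 tables placed the members at different levels. The highest mean was found in the rupture table for 8 of 9 members, with ACTA2 as the exception, which was highest in MN- cells (64.5 CPM) and lowest in DMSO (32.0 CPM). The highest condition mean over the lowest was 2.02 for ACTA2, 2.00 for TAGLN, 1.63 for MYL9, 1.61 for SRF and between 1.25 and 1.40 for the others. TAGLN was at 77.7 CPM in DMSO and at 155 CPM in rupture-, and MYL9 at 60.1 and 98.1 CPM. The tables differ in synchronisation and selection of cells and were scaled separately, and no test was made between them.

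Across the 22 libraries, with log2 CPM centred within each condition, the members did not vary as one group. MYL9 and TPM2 were the most alike (Pearson r = 0.86), followed by MYL9 and TAGLN (0.79), TPM2 and CNN2 (0.75) and TPM2 and TAGLN (0.72). TPM1 and VCL were the least alike (-0.78). Of the 36 pairs of members 15 had r above 0, and the median was -0.06. Against the mean of the other members, MYL9 had r = 0.70, TAGLN 0.64, TPM2 0.59 and CNN2 0.55, ACTA2 -0.07 and SRF -0.28, and TPM1 and FHL2 both -0.51. Libraries of one experiment share a day, and often but not always a similar depth, so these values describe the libraries and were not tested.

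**Figure D4:**
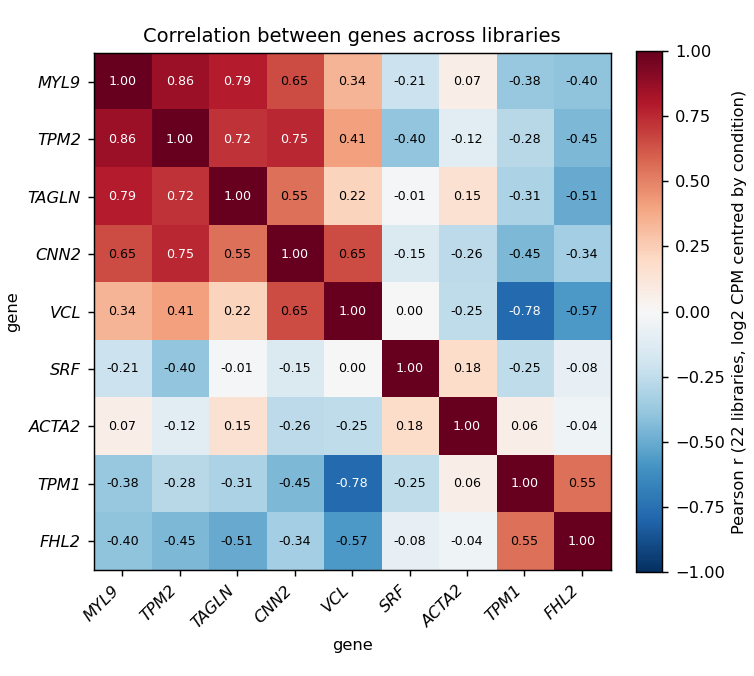
Pearson r between the measured genes over 22 libraries, after centring log2 CPM within each of the 6 conditions. MYL9, TPM2, TAGLN and CNN2 form a red square (r from 0.55 to 0.86), and TPM1 and FHL2 (0.55) stand against them in blue.

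Outside the set, the genes most like the mean of the measured members on this scale were LDOC1 (r = 0.92), the histone gene H2AJ (0.88), ZMAT5 (0.86), the mitochondrial copper chaperone gene SCO2 (0.86) and RANGRF (0.85), of 9431 genes with values in all 3 tables. The least alike were CREBL2 (-0.84), BICC1 (-0.84), HECTD2 (-0.83), TMEM161B (-0.82) and PLPP6 (-0.82). With centring by table instead, which keeps the differences between conditions, the most alike genes included the kinase gene CSNK1E (0.90), the actin-binding gene COTL1 (0.87), the protein disulphide isomerase gene P4HB (0.83) and NOL3 (0.83).

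Genes around the set were followed in 5 lists. Of the SRF cofactors and their regulators, 7 of 10 were measured in the Mps1i table and none passed (median log2 fold change -0.04). MRTFA was at 13.3 ± 0.764 CPM in DMSO and 15.0 ± 0.687 CPM in Mps1i (log2 fold change 0.18, edgeR adjusted p = 0.108), and MRTFB at 9.84 ± 1.90 and 8.34 ± 1.78 CPM (-0.24, adjusted p = 0.382). Neither passed between MN+ and MN- or between rupture+ and rupture-.

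Of the genes for actin and its monomer control, 13 of 16 were measured, and 2 fell in Mps1i with none that rose, where 5.76% of all genes fell and 6.32% rose. ACTG1, the gene for cytoplasmic gamma-actin, fell from 8750 ± 203 to 7913 ± 300 CPM (log2 fold change -0.14, edgeR adjusted p = 0.0216). The formin gene DIAPH3 fell from 150 ± 8.49 to 134 ± 2.35 CPM (-0.16, adjusted p = 0.0396). The call of ACTG1 was lost without the DMSO library of 800 ms experiment 1 (edgeR adjusted p = 0.0553) or the Mps1i library of 200 ms (0.0694) or 800 ms (0.0603) experiment 2, and that of DIAPH3 on leaving out any 1 of 7 libraries, all but the DMSO library of 200 ms experiment 1 (up to 0.112). Of the genes for myosin II, its control and thin-filament proteins, 19 of 23 were measured, of which 1 rose and 2 fell, against the same shares of all genes. CNN3, the third calponin gene, rose from 595 ± 8.31 to 679 ± 22.6 CPM (0.19, adjusted p = 0.00680), and the non-muscle myosin heavy chain gene MYH10 fell from 111 ± 8.70 to 95.3 ± 2.29 CPM (-0.21, adjusted p = 0.0288). The other that fell, named after its value was seen, was the kinase gene ROCK2 (-0.16, adjusted p = 0.0331). CNN3 passed in all 20 alternative fits. MYH10 lost its call without the DMSO library of 200 ms experiment 1 or 800 ms experiment 2, or any Mps1i library but that of 200 ms experiment 1 (edgeR adjusted p up to 0.0817), and ROCK2 without either 800 ms DMSO library or any 1 of the Mps1i libraries (up to 0.0979).

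Of the focal adhesion and stress fibre genes all 22 were measured and 1 rose in Mps1i (6.32% of all genes did), TES, the gene for the LIM-domain protein testin, from 86.1 ± 2.84 to 106 ± 2.88 CPM (log2 fold change 0.30, edgeR adjusted p = 0.00130). TES passed in all 20 alternative fits. With the experiment as a block 3 rose, as did 12.7% of all genes, the other two being ACTN1 and ILK, named after their values were seen. The list's median was 0.03. The medians of the actin and myosin lists were -0.02 and -0.01.

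The SRF immediate early targets had the highest list median in Mps1i (0.21, against -0.0038 over all genes). Of 12 genes, 9 were measured, 3 rose and 1 fell, where 6.32% of all genes rose and 5.76% fell. EGR1, a zinc-finger transcription factor gene, rose from 5.22 ± 2.25 CPM in DMSO (2.42 to 7.47) to 16.0 ± 0.754 CPM in Mps1i (14.8 to 16.5), a log2 fold change of 1.63 (SE 0.26, edgeR adjusted p = 0.00334). CCN1, a secreted matrix-associated protein gene, rose from 1728 ± 56.4 to 1999 ± 19.4 CPM (0.21, adjusted p = 0.00321). The other two, named after their values were seen, were NR4A1, which rose (0.51, adjusted p = 0.0182), and the survival gene MCL1, which fell (-0.30, adjusted p = 0.0431). EGR1 and CCN1 passed in all 20 alternative fits. NR4A1 lost its call without the DMSO library of 800 ms experiment 2 (edgeR adjusted p = 0.0519), and MCL1 without either DMSO library of experiment 1 or any 1 of the Mps1i libraries (up to 0.0984). With the block 6 rose and 2 fell, where 12.7% of all genes rose and 11.8% fell.

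None of the 10 immediate early targets measured in the MN table passed (median log2 fold change 0.16). EGR1 was at 36.4 ± 8.55 CPM in MN+ (24.9 to 43.4) and 19.1 ± 3.41 CPM in MN- (16.6 to 24.1), without overlap of the libraries, and with a log2 fold change of 0.93 (SE 0.18, edgeR adjusted p = 0.641; 0.146 with the block). Between rupture+ and rupture- 1 of 9 rose, EGR1, from 35.0 ± 3.11 CPM in rupture- to 76.1 ± 13.2 CPM in rupture+ (log2 fold change 1.12, SE 0.13, adjusted p = 0.0477), and 2 rose with the block, EGR1 and FOS. The call of EGR1 without the block was lost on leaving out any library but that of rupture+ experiment 1 (edgeR adjusted p up to 0.306). None of the measured genes of the other 4 lists passed in the MN or rupture table, with or without the block.

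**Figure D5:**
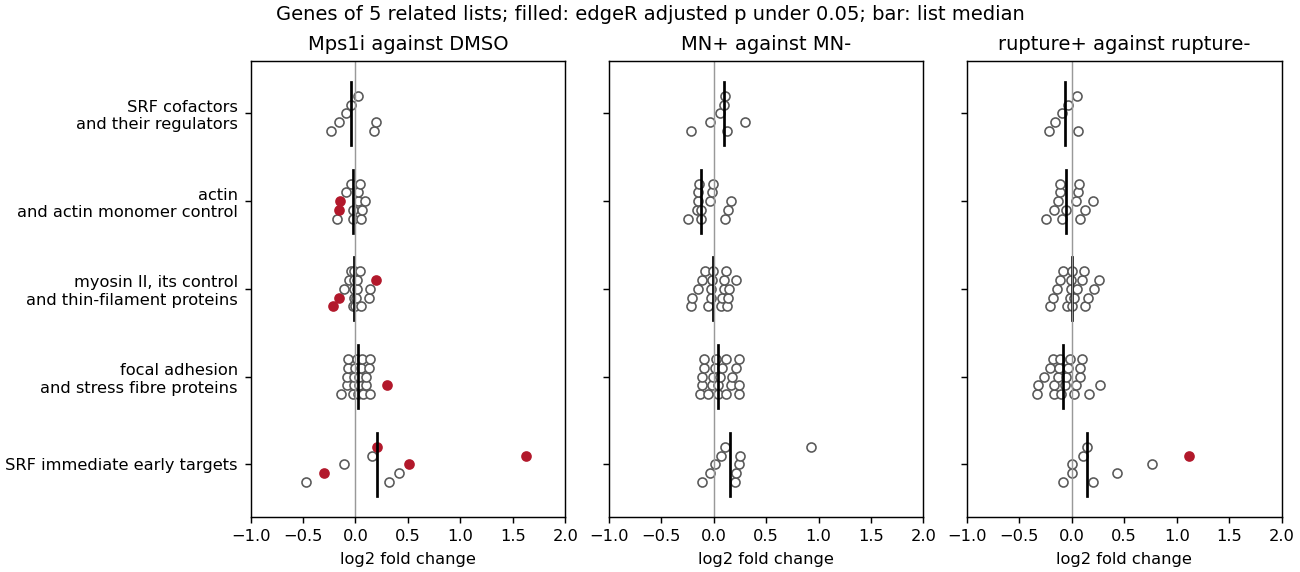
Log2 fold change (horizontal axis) of the measured genes of the 5 lists in the 3 comparisons, each point a gene, with the list median as a bar and genes past an edgeR adjusted p of 0.05 filled. The far right point of the Mps1i panel is EGR1 at 1.63, and the filled point of the rupture panel is EGR1 at 1.12.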

How the data were processed

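The authors quantified paired-end libraries with Salmon (1.2 in the submitters' processing notes, with bcl2fastq 2.20) on hg38 and summarised them to genes with tximeta. The values are deposited as estimated counts per gene in 3 tables, already whole numbers and unscaled, for genes that reached 700 counts in 2 or more libraries. Offsets for transcript length were not used here. Libraries were mapped to conditions from the sample labels, and columns that cover 2 labelled parts of a library count as 1. Members and lists were chosen with earlier results of these data known. Counts were tested in edgeR 4.0.16 (two-sided quasi-likelihood test, TMM, condition alone, Benjamini-Hochberg adjustment over all genes of a table, threshold 0.05; R 4.3.3), a procedure tested on simulated data. The study's methods name a likelihood ratio test in DESeq2, which was an alternative (1.42.0), as were limma-voom (limma 3.58.1), other scalings, the experiment as a block and leaving out libraries or experiments.

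The labels give all libraries of an experiment the same day, so the experiment numbers pair them. Within an experiment, deviations from condition means (log2 CPM, prior count 2) correlated at 0.0279 to 0.380 (Mps1i table), -0.0133 to 0.659 (MN table) and 0.00951 to 0.229 (rupture table). The labels do not say whether libraries came from separate cultures. For the Mps1i table the study gave each treated population both pulse lengths at random and describes the libraries of an experiment as technical replicates. The main fit took them as separate libraries, so p-values cover only the spread among libraries, part of which may be technical. Intervals are at 95%. All members were named in every comparison, and of each list up to 2 genes per comparison with the smallest adjusted p past the threshold; the 5 genes most like the members and the 5 least like them were taken by Pearson r, and 1 gene this rule named is not reported here. Positions are from GENCODE v44. Promoter windows are from RefSeq (GRCh38.p14), with entries for 8 of 10 members. CPM per kb uses MANE Select transcripts. Tables were made with Python 3.11.15 (pandas 2.3.3).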

Additional observations from a re-analysis of the deposited data

Results flagged for a closer look

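In the group of 4 MN- libraries, the 800 ms library of experiment 1 stood apart for 2 members. CNN2 was at 367 CPM there and at 407 to 415 CPM in the other 3 MN- libraries, and TPM2 at 605 CPM against 751 to 780 CPM. Dixon's test was applied to 36 sets of 4 libraries (9 members in 4 conditions), and chance alone flags about 1 in 20. Without this library the log2 fold change of TPM2 between MN+ and MN- was -0.33 (edgeR adjusted p = 0.489) and that of CNN2 -0.18 (adjusted p = 0.506).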

How the results depend on the processing

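Direction and side of the threshold held in 540 of 594 values of single members under an alternative. In Mps1i against DMSO 1277 genes passed, 2593 with the experiment as a replicate block, 3040 by DESeq2 and 2795 by limma-voom with that block, 2798 without experiment 1, 524 without experiment 2, and 717 to 1219 on leaving out single libraries. Members passing numbered 4, and 3 to 5 over all alternatives, and the block changed the call of TPM2 alone among them. Between MN+ and MN- no gene passed, 1 with the block, 5 by DESeq2, 161 by DESeq2 and 1 by limma-voom with the block, 2 without experiment 2, 35 with the well as the block, and 822 with pulse lengths summed and the block, which is the one fit that called a member (1, TPM2). For rupture 3 genes passed, 15 with the block in edgeR and in limma-voom, 47 by DESeq2 and 72 with the block, 0 with DESeq2 size factors, 10, 1 and 0 without experiments 1, 2 and 3, and 0 to 6 without single libraries, while no member passed.

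Every change of sign concerned a value that did not pass the test. In Mps1i against DMSO it was SRF at 0.11 and TPM1 at -0.039 without experiment 1, CNN2 at 0.0042 without experiment 2, and, over single libraries left out, SRF from -0.14 to 0.030 and VCL from -0.072 to 0.022. In MN+ against MN- it was SRF at -0.075 and ACTA2 at 0.014 without experiment 2, FHL2 at 0.0044 without experiment 1, and ACTA2 at 0.019 and FHL2 at 0.012 on library totals. Leaving out single libraries gave -0.075 to 0.015 for ACTA2 and -0.075 to 0.046 for FHL2.

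For rupture it was TAGLN at 0.017 and FHL2 at 0.024 on library totals, TAGLN at 0.047 and FHL2 at 0.046 without experiment 1, TPM2 at -0.023 without experiment 2, and TAGLN at 0.023, TPM1 at -0.0059, TPM2 at -0.060, VCL at 0.037 and FHL2 at 0.015 without experiment 3. Leaving out single libraries gave -0.060 to 0.10 for TAGLN, -0.051 to 0.13 for TPM2, -0.11 to 0.025 for VCL and -0.035 to 0.064 for FHL2. The cause of these changes was not tested. SRF and ACTA2 rest on the fewest counts of the members.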
